A study of Mus musculus with 12 samples.

Results

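Adenylyl cyclases convert ATP into cyclic AMP (cAMP). The data described here are the RNA levels of the 10 genes of this family, Adcy1 to Adcy10, in mouse inguinal white adipose tissue (iWAT). They were picked by gene symbol from a table of 23420 genes, and all 10 were found. Enough counts for testing were present for 9 of them, among 15306 genes tested, whereas Adcy8 had too few.

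In adipocytes, noradrenaline released by sympathetic nerves in cold binds β-adrenergic receptors, whose stimulatory G protein (Gαs) switches on membrane-bound adenylyl cyclase. The resulting cAMP activates protein kinase A (PKA), which drives lipolysis and the thermogenic programme, and phosphodiesterases break cAMP down again. Adcy1, Adcy3 and Adcy8 encode enzymes that Ca2+ and calmodulin can stimulate, Adcy2, Adcy4 and Adcy7 enzymes that G protein βγ subunits can stimulate, and Adcy5 and Adcy6 enzymes that Ca2+ inhibits. Adcy9 encodes a more distant membrane-bound isoform that responds poorly to forskolin, and Adcy10 encodes the soluble isoform, which bicarbonate activates.

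RNA-seq was performed on iWAT of C57BL/6 male mice at 10 weeks of age. All of them carried loxP-flanked HIF2α alleles (HIF2a loxP/loxP). Mice labelled WT lacked Cre, and HIF2α AKO mice (adipocyte-specific knockout, AKO below) also carried Adipoq-Cre, which deletes the gene in adipocytes and not in the other cells of the tissue. Mice were kept at thermoneutrality (TN, 30 °C) for 1 week or in cold (4 to 6 °C) for 3 days. Temperature and length of exposure therefore cannot be told apart in the comparison of cold with TN. Each of the 4 groups (TN WT, TN AKO, cold WT and cold AKO) had 3 libraries, and sources used here do not say that they came from separate animals, so p-values measure the spread between these libraries.

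Libraries held between 22368316 and 35204631 counts on genes. Epas1, the gene of HIF2α, stood at 360 ± 76.8 CPM (read counts scaled to library size) in TN WT, 348 ± 53.8 CPM in TN AKO, 627 ± 101 CPM in cold WT and 826 ± 139 CPM in cold AKO (mean ± SD, n = 3). Its counts were thus not lower in libraries labelled AKO. They do not resolve the part of the gene between the loxP sites and other cells of the tissue keep the gene, so genotypes are given as labelled. Adipocyte markers fitted the tissue label, with Adipoq between 1349 and 1820 CPM as group means. The sum of the 8 listed adipocyte markers varied more, from 4633 CPM in TN WT replicate 2 to 29429 CPM in cold WT replicate 3. Skeletal muscle markers stood apart in 2 libraries. The 12 markers summed to 2031 CPM in TN AKO replicate 2 and to 1785 CPM in cold AKO replicate 1, against 43.0 to 134 CPM in the other 10 libraries. Epithelial markers summed to 200.1 CPM in TN WT replicate 3 and to between 2.95 and 10.3 CPM elsewhere. Fold changes of several members are also given with some of these libraries left out. Values of pathway and marker genes are given from all 12 libraries only.

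The promoter windows of Adcy3, Adcy4 and Adcy9 are shown because these were the members whose RNA was higher in cold in both genotypes (values below). The windows are from RefSeq on GRCm38.p6 and hold 250 bases before and 50 bases after an annotated start, written 5′ to 3′ on the strand of the gene. Windows were held for 8 of 10 members, with 11 windows in all and none for Adcy6 or Adcy8. Capitals mark 2 kinds of match, the half-site TGACG of the cAMP response element, which CREB proteins can bind, and the core ACGTG of the hypoxia response element, which HIF proteins can bind, on either strand.
Adcy3, first start, chr12:4133147-4133446, plus strand: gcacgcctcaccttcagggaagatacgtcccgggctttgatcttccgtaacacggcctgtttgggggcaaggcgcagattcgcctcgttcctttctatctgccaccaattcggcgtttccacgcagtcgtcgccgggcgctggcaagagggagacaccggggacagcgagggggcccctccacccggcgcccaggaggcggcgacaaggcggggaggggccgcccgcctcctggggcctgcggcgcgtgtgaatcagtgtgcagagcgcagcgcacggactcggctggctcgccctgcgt
Adcy3, second start, chr12:4133903-4134202, plus strand: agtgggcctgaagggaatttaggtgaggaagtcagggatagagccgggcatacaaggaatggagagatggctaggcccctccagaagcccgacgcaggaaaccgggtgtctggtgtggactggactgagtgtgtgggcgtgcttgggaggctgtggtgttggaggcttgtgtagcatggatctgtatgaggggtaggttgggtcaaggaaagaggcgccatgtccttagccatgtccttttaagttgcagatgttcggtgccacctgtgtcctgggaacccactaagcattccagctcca
Adcy4, chr14:55784023-55784322, minus strand: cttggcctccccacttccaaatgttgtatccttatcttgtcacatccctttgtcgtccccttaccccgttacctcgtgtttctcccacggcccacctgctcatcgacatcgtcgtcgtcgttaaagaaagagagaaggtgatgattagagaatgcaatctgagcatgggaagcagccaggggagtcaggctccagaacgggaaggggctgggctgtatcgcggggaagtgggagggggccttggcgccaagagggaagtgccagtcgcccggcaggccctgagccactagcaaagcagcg
Adcy9, chr16:4420449-4420748, minus strand: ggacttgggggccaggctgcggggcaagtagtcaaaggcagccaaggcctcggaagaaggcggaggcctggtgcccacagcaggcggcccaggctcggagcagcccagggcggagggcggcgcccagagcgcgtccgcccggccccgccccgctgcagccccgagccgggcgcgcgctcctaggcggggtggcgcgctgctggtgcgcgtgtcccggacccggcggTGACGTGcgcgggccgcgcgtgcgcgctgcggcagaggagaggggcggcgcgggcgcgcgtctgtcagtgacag
Neither window of Adcy3 nor that of Adcy4 held either motif. Adcy3 has 8 annotated starts in GENCODE M21 and only 2 windows here, so the start used in cold may lie outside them. The window of Adcy9 held TGACG starting 24 bases before the start and, sharing letters with it, ACGTG starting 22 bases before the start. Among the other members, the first window of Adcy7 held TGACG and that of Adcy1 held ACGTG. Thus 2 of 11 windows held TGACG and 2 held ACGTG, whereas 20.8% and 19.6% of all 32851 promoter windows of the same length did so. The full element TGACGTCA was in 0 of 11 windows and in 1.79% of all windows. A match is a string of letters and no match says only that these letters are not in this window.

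First, levels of the members were compared with each other. For this, CPM were divided by the length of all exons of the gene in kb (RPKM), since longer transcripts collect more reads. At TN, Adcy7 and Adcy6 had the highest levels, followed by Adcy5, Adcy4, Adcy3 and Adcy9. In TN WT, mean levels were 33.9 RPKM for Adcy7, 32.2 RPKM for Adcy6, 18.4 RPKM for Adcy5, 8.62 RPKM for Adcy4, 5.64 RPKM for Adcy3 and 2.48 RPKM for Adcy9. The other 4 members were at most at 0.336 RPKM on average. Libraries of Adcy7 overlapped with those of Adcy6, and those of Adcy6 with those of Adcy5, while Adcy5, Adcy4, Adcy3 and Adcy9 followed each other with no overlap. Adcy2 was above Adcy1 with no overlap, whereas Adcy10 overlapped with both, and Adcy8 lay below all of them with 0.0119 RPKM. The order was the same in TN AKO, except that Adcy6 and Adcy5 did not overlap there.

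In cold, the order was different. In cold WT, Adcy6 came first with 44.9 RPKM, followed by Adcy3 with 29.5 RPKM, Adcy5 with 26.7 RPKM and Adcy7 with 24.6 RPKM. Adcy3, Adcy5 and Adcy7 all overlapped with each other. In cold AKO, Adcy6 with 47.4 RPKM and Adcy3 with 41.9 RPKM overlapped, and both stood above Adcy5 with 22.6 RPKM and Adcy7 with 20.7 RPKM. Thus, by mean level, Adcy3 was the fifth of the 10 members at TN and the second in cold in both genotypes. In cold WT this place was not separated from those of Adcy5 and Adcy7. Adcy10 was above Adcy2 with no overlap in cold and not at TN. As a share of the RPKM summed over the 10 members, Adcy3 made up 5.55% ± 0.595 in TN WT, 6.55% ± 0.252 in TN AKO, 20.8% ± 3.16 in cold WT and 27.7% ± 7.06 in cold AKO (SD, n = 3). Adcy7 made up 33.7% ± 8.27, 31.8% ± 5.59, 17.6% ± 5.66 and 13.8% ± 3.14 in the same groups. The share of Adcy6 was between 31.2% and 31.7% in the 4 groups. The summed level was 102 RPKM in TN WT, 105 RPKM in TN AKO, 142 RPKM in cold WT and 149.8 RPKM in cold AKO, and without Adcy3 it was 96.5, 98.3, 112 and 108 RPKM. These are levels of RNA and not amounts or activities of the enzymes.

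**Figure D1:**
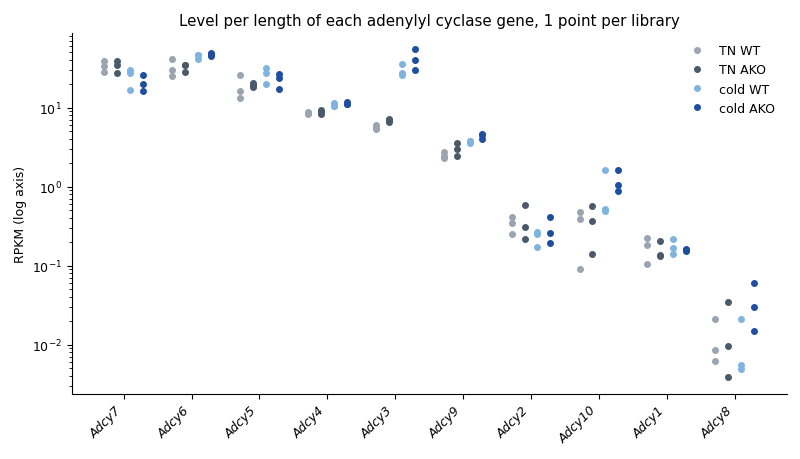
RPKM of each adenylyl cyclase gene on a log axis, with 1 point per library and colours for the 4 groups, ordered by the mean in TN WT. Adcy3 lies between 5.32 and 7.24 RPKM at TN and between 25.6 and 55.0 RPKM in cold, whereas Adcy8 reaches at most 0.0594 RPKM in any library.

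Next, cold was compared with TN within each genotype, which asks how cold acclimation changes RNA levels of these enzymes. In WT, Adcy3, Adcy4 and Adcy9 were higher in cold, and in AKO the same 3 genes and Adcy6 were higher. Adcy3 stood out in size, with about the same fold change in both genotypes. The count of 3 of 9 tested members higher and 0 lower in WT compares with 21.3% of all tested genes called in either direction and 15.6% called higher. In AKO, 4 of 9 members were higher and 0 lower, against 27.0% of all tested genes called and 15.6% called higher. The 3 members higher in both genotypes compare with 12.2% of all tested genes higher in both. The median log2 fold change of the 9 members was 0.48 in WT and 0.35 in AKO, beside medians of -0.03 and -0.05 over all tested genes. With so few members, these shares are descriptions. The groups did not overlap for 5 of 10 members in WT, all higher in cold, and for 6 of 10 in AKO, of which 1 was lower, where 42.0% and 50.5% of all tested genes showed no overlap. The count in WT depended on TN WT replicates 2 and 3. Without replicate 2, only Adcy3 was called, with adjusted p-values of 0.0653 for Adcy4 and 0.0589 for Adcy9, and without replicate 3, which held the epithelial reads, 5 members were called.

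**Figure D2:**
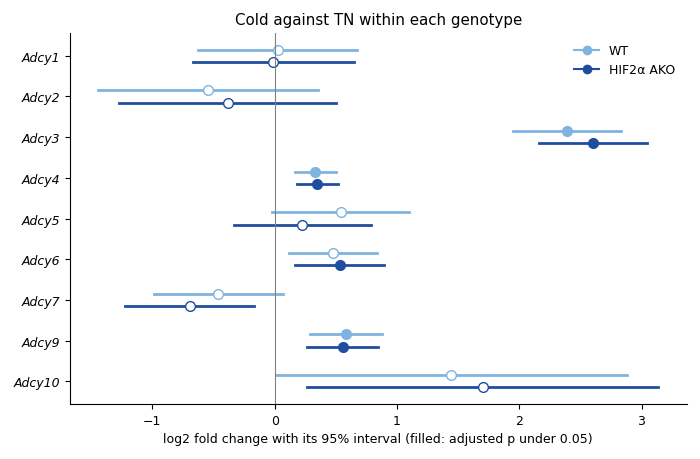
log2 fold change of cold against TN in WT (light blue) and AKO (dark blue) for the 9 tested members, with 95% intervals, and filled points for an adjusted p under 0.05. Adcy3 lies at 2.39 and 2.60, and the point estimates of the other members lie between -0.69 and 1.70.

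Among the isoforms that Ca2+ and calmodulin stimulate, Adcy3 was the one with appreciable counts. Adcy3 stood at 37.4, 33.2 and 35.0 CPM in TN WT and at 159.7, 171 and 223 CPM in cold WT. It stood at 40.7, 43.2 and 45.2 CPM in TN AKO and at 343, 189 and 252 CPM in cold AKO. Every cold library was thus far above every TN library. The fold change was 5.24 in WT (log2 fold change 2.39, SE 0.20, adjusted p = 1.25e-04, edgeR quasi-likelihood test). In AKO it was 6.07 (log2 fold change 2.60, SE 0.20, adjusted p = 5.27e-05). Of all 15306 tested genes, 0.856% had a larger log2 fold change in WT and 0.823% in AKO. Ordered by p-value, Adcy3 was at place 15 of all tested genes in each genotype. With both libraries with skeletal muscle reads left out, the log2 fold change in AKO was 2.36. Adcy3 is known for having a short cold-induced transcript in thermogenic fat. The gene has 8 annotated transcripts with 8 starts (chr12:4133103-4213525, GRCm38, GENCODE M21), and counts per gene do not tell them apart. Its exons overlap those of Cenpo on the other strand, and the strand setting of the counting is not given in the sources used here. Cenpo itself stood at 10.6 ± 2.09 CPM in TN WT and at 9.13 ± 1.60 CPM in cold WT, and at 10.7 ± 1.77 and 7.84 ± 0.613 CPM in TN AKO and cold AKO.

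Markers of thermogenic adipocytes moved with Adcy3. Of 8 listed markers, 7 in WT and 8 in AKO were higher in cold, and their summed level was between 28.4 and 90.6 CPM in the 6 TN libraries and between 3350 and 8582 CPM in the 6 cold libraries. The cold library with the most Adcy3, cold AKO replicate 1, also had the highest sum. Within cold WT, however, replicate 3 had the most Adcy3 (223 CPM) with a sum of 3627 CPM, below the 4864 CPM of replicate 2. Summed adipocyte markers were also higher, with 4 of 8 called in WT and 1 of 8 in AKO. In whole tissue, more cells of a type and more RNA per cell cannot be told apart, and the part of the cell makeup in the change of Adcy3 was not tested.

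Adcy1, best known from neurons, gave 38 to 90 counts per library. It was at 2.14 ± 0.776 CPM in TN WT, 1.98 ± 0.515 CPM in TN AKO, 2.18 ± 0.464 CPM in cold WT and 1.95 ± 0.0615 CPM in cold AKO (SD, n = 3). All 4 groups overlapped. Adcy8 gave only 1 to 10 counts per library. Its counts were 2, 2 and 5 in TN WT, 2, 1 and 8 in TN AKO, 1, 4 and 1 in cold WT and 10, 3 and 6 in cold AKO. For cold against TN, summed counts were 6 and 9 in WT, a ratio of 0.923 after scaling for depth (95% counting interval 0.270 to 2.90), and 19 and 11 in AKO, a ratio of 2.10 (0.951 to 4.89). Without the filter on low counts, the quasi-likelihood test gave Adcy8 unadjusted p-values of 0.863 in WT and 0.206 in AKO, so no difference was detectable at this depth.

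Of the isoforms that Gβγ stimulates, Adcy4 was higher in cold by a small step with very little spread. Adcy4 stood at 40.5, 38.7 and 41.7 CPM in TN WT and at 53.9, 49.6 and 48.7 CPM in cold WT. It stood at 38.8, 43.9 and 41.5 CPM in TN AKO and at 51.3, 51.3 and 55.8 CPM in cold AKO. The lowest cold library was above the highest TN library. Cold against TN gave a log2 fold change of 0.33 in WT (SE 0.08, adjusted p = 0.0129) and 0.35 in AKO (SE 0.08, adjusted p = 0.00894). With both libraries with skeletal muscle reads left out, it was 0.41 in AKO (adjusted p = 0.0344, edgeR). The call in WT was also lost when only the 6 WT libraries were fitted (adjusted p = 0.0540). Adcy4 is known to be abundant in endothelial cells. Of 8 endothelial markers, 0 in WT and 1 in AKO (Emcn) were called higher by edgeR, 0 and 3 had an unadjusted p under 0.05, with median log2 fold changes of 0.10 and 0.20, and their sum was 913 to 1170 CPM in TN WT, 939 to 1081 CPM in TN AKO, 1105 to 1195 CPM in cold WT and 1150 to 1282 CPM in cold AKO. Their part in the change of Adcy4 was not tested.

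Adcy7, which is prominent in immune cells, had lower values in cold, without passing the test. Adcy7 stood at 227, 265 and 193 CPM in TN WT and at 186, 199.8 and 112 CPM in cold WT, so that these groups overlapped. It stood at 261, 183 and 231 CPM in TN AKO and at 108, 135 and 174 CPM in cold AKO, with all cold libraries below all TN libraries. The log2 fold change was -0.46 in WT (95% interval -0.99 to 0.07, adjusted p = 0.174), and -0.24 without cold WT replicate 3. In AKO it was -0.69 (95% interval -1.22 to -0.17, adjusted p = 0.0526). In AKO, the value passed with DESeq2 (adjusted p = 0.0246) and with limma voom (adjusted p = 0.00813), but not with the replicate block (adjusted p = 0.0877) or with both muscle-bearing libraries left out (adjusted p = 0.131), and with 1 library left out its adjusted p lay between 0.0234 and 0.186. Lymphocyte markers moved with Adcy7. Of 8, 1 in WT (Ms4a1) and 3 in AKO (among them Ms4a1 and Cd22) were called lower, 0 were called higher, and the sum was 1160 to 1857 CPM in TN WT, 648 to 1131 CPM in cold WT, 1165 to 1864 CPM in TN AKO and 660 to 975 CPM in cold AKO. The 2 libraries with the least Adcy7, cold AKO replicate 1 and cold WT replicate 3, also had the lowest lymphocyte sums, and the 2 with the most Adcy7, TN WT replicate 2 and TN AKO replicate 1, the highest. Of 7 macrophage markers counted, 2 in AKO (Mrc1 and C1qa) were lower, and in WT 0 were called and 0 had an unadjusted p under 0.05. The macrophage sum matched the same libraries as the lymphocyte sum. It was lowest in cold WT replicate 3 (1228 CPM) and cold AKO replicate 1 (1398 CPM), and highest in TN WT replicate 2 (2699 CPM) and TN AKO replicate 1 (2663 CPM). The part of these cells in the values of Adcy7 was not tested.

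Adcy2, known from brain and skeletal muscle, gave 18 to 79 counts per library. It stood at 1.48, 1.71 and 1.06 CPM in TN WT, at 1.29, 2.48 and 0.919 CPM in TN AKO, at 1.12, 1.07 and 0.724 CPM in cold WT and at 1.74, 1.09 and 0.801 CPM in cold AKO. The highest library in each AKO group was the one with skeletal muscle reads. The log2 fold change in cold was -0.55 in WT (SE 0.41) and -0.38 in AKO (SE 0.40), and neither passed the test (adjusted p = 0.332 and 0.487). The value in AKO was 0.13 without TN AKO replicate 2, -0.73 without cold AKO replicate 1 and -0.22 with both of these muscle-bearing libraries left out.

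**Figure D3:**
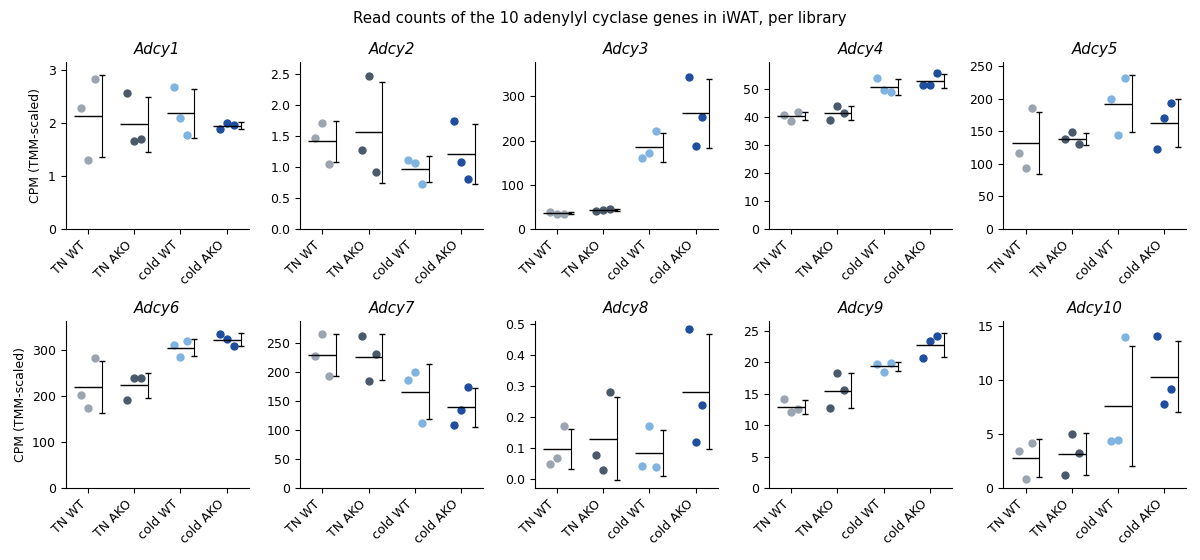
CPM of each adenylyl cyclase gene in every library, with a panel per gene and its own axis, 3 points per group, a line at the mean and a bar for the SD. Adcy3, Adcy4, Adcy6, Adcy9 and Adcy10 separate cold from TN in both genotypes (Adcy6 narrowly in WT), whereas Adcy1 and Adcy2 overlap between all groups.

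Of the isoforms that Ca2+ inhibits, Adcy6 was higher in cold in AKO. Adcy6 stood at 191, 239 and 238 CPM in TN AKO and at 335, 323 and 307 CPM in cold AKO. It stood at 202, 173 and 281 CPM in TN WT and at 311, 283 and 319 CPM in cold WT. The cold libraries were above the TN libraries in both genotypes, but in WT only narrowly, with 283 CPM in the lowest cold and 281 CPM in the highest TN library. Adcy6 had a log2 fold change of 0.53 in AKO (SE 0.16, adjusted p = 0.0360) and 0.48 in WT (SE 0.16, adjusted p = 0.0590). The call in AKO was lost in 6 of the 12 fits that left out 1 library (TN WT replicate 1, TN AKO replicates 1 and 3, or any of the cold AKO replicates) and with both muscle-bearing libraries left out (log2 fold change 0.55, adjusted p = 0.123). In WT, by contrast, Adcy6 passed without TN WT replicate 3 (log2 fold change 0.70, adjusted p = 0.00665).

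Adcy5 stood at 117, 93.9 and 186 CPM in TN WT and at 199.8, 145 and 231 CPM in cold WT. It stood at 138, 148 and 130.0 CPM in TN AKO and at 122, 171 and 194 CPM in cold AKO. The groups overlapped in both genotypes. For Adcy5, the log2 fold change was 0.54 in WT (95% interval -0.02 to 1.10, adjusted p = 0.139) and 0.23 in AKO (95% interval -0.33 to 0.79, adjusted p = 0.515). With 1 library left out it ranged from 0.33 (without TN WT replicate 2) to 0.87 in WT, and in AKO from 0.08 (without cold AKO replicate 3) to 0.39 (without cold AKO replicate 1), and with both muscle-bearing libraries left out it was 0.45 in AKO. Without TN WT replicate 3, the highest of the TN WT libraries, the value of 0.87 in WT passed (adjusted p = 0.0236).

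Adcy9 was higher in cold in both genotypes. Adcy9 stood at 14.2, 12.0 and 12.6 CPM in TN WT and at 19.7, 18.5 and 19.9 CPM in cold WT. It stood at 12.7, 18.3 and 15.5 CPM in TN AKO and at 20.7, 23.4 and 24.2 CPM in cold AKO. No cold library overlapped with TN of the same genotype. The log2 fold change was 0.58 in WT (SE 0.13, adjusted p = 0.0124) and 0.55 in AKO (SE 0.13, adjusted p = 0.0132). With both muscle-bearing libraries left out, it was 0.76 in AKO (adjusted p = 0.0103, edgeR).

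Adcy10, the soluble isoform, had higher values in cold, with wide spread. Adcy10 stood at 3.41, 0.788 and 4.16 CPM in TN WT and at 4.34, 4.49 and 14.0 CPM in cold WT. It stood at 1.21, 5.02 and 3.22 CPM in TN AKO and at 14.0, 7.76 and 9.17 CPM in cold AKO. The groups did not overlap, but in cold WT the value of 14.0 CPM came from replicate 3 alone. For Adcy10, the log2 fold change was 1.45 in WT (95% interval 0.01 to 2.88, adjusted p = 0.127) and 1.70 in AKO (95% interval 0.26 to 3.14, adjusted p = 0.0726), so neither passed. Without cold WT replicate 3, the value in WT was 0.66. In AKO, DESeq2 (adjusted p = 0.0258), limma voom (adjusted p = 0.0197) and edgeR on the 6 AKO libraries (adjusted p = 0.0313) called it higher. With edgeR it did not pass with the replicate block (adjusted p = 0.102). The same held with both muscle-bearing libraries, the highest of their AKO groups, left out (log2 fold change 1.93, adjusted p = 0.141). With 1 library left out, its adjusted p in AKO lay between 0.0430 and 0.215.

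Subsequently, AKO was compared with WT at each temperature, which asks whether HIF2α in adipocytes affects these RNA levels. No member passed the adjusted threshold in cold, at TN or in the interaction of genotype and temperature with edgeR, DESeq2 or limma voom. In cold, edgeR called 0 of 9 members, against 0.00653% of all tested genes, and 1 member, Adcy3, had an unadjusted p under 0.05, as did 2.95% of all tested genes. At TN, 0 of 9 were called, again against 0.00653%, and 0 had an unadjusted p under 0.05. For the interaction, 0 members and 0.0% of all tested genes were called, and the smallest unadjusted p of a member was 0.401.

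In cold, the log2 fold change of Adcy3 in AKO against WT was 0.50 (SE 0.19, 95% interval 0.08 to 0.92, unadjusted p = 0.0229 and adjusted p = 1.00, edgeR). The values of 343, 189 and 252 CPM in cold AKO overlapped with those of 159.7, 171 and 223 CPM in cold WT. Without cold AKO replicate 1, a library with skeletal muscle reads and the highest sum of thermogenic markers, the estimate was 0.26. Thermogenic markers were at higher values in cold AKO for 8 of 8 genes, of which 0 passed the test, and their part was not tested. At TN, the 3 AKO libraries (40.7 to 45.2 CPM) were above the 3 WT libraries (33.2 to 37.4 CPM), with a log2 fold change of 0.29 (95% interval -0.13 to 0.71). The change of Adcy3 with cold did not differ detectably between genotypes, with an interaction of 0.21 on the log2 scale (95% interval -0.38 to 0.81), and this interval still allows a difference of either sign.

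Adcy9 was the member whose libraries did not overlap between the genotypes in cold, with 20.7 to 24.2 CPM in AKO and 18.5 to 19.9 CPM in WT. Its log2 fold change was 0.23 in cold (95% interval -0.06 to 0.52) and 0.26 at TN (95% interval -0.03 to 0.55). The value at TN was 0.13 without TN AKO replicate 2, and also with both muscle-bearing libraries left out. Of all tested genes, 7.53% did not overlap in cold, and 7.69% did not overlap at TN, where Adcy3 was the 1 such member. The relaxed thresholds of the study were an unadjusted p under 0.15 with an absolute log2 fold change above 0.2. The study set them on DESeq2 values, and here they were set on the values of the edgeR fit. In cold they were passed by 2 of 9 members, Adcy3 and Adcy9, and by 8.98% of all tested genes. Adcy8, which was not in that fit, had summed counts of 19 in cold AKO and 6 in cold WT, a ratio of 3.17 after scaling for depth with a 95% counting interval of 1.22 to 9.71. This interval covers counting error only, and libraries overlapped. Without the filter on low counts, the quasi-likelihood test gave Adcy8 an unadjusted p of 0.0812 and an adjusted p of 1. A list of upregulated network genes chosen by the study on these same libraries holds Adcy3, Adcy8 and Adcy9, so the direction of these values is not independent of that choice.

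Of the other members in cold, Adcy7 was at -0.25 (95% interval -0.78 to 0.27), Adcy5 at -0.24 (95% interval -0.80 to 0.32), Adcy2 at 0.31 (95% interval -0.61 to 1.23) and Adcy10 at 0.44 (95% interval -0.95 to 1.82) on the log2 scale. Each of these values moved by over 1.5 times when a single cold library was left out, from -0.47 to -0.07 for Adcy7, from -0.39 to -0.08 for Adcy5, from -0.04 to 0.54 for Adcy2 and from 0.15 to 1.22 for Adcy10. Without cold AKO replicate 1, the one with skeletal muscle reads, they were -0.10, -0.08, -0.04 and 0.15, while without cold WT replicate 3 they were -0.47, -0.09, 0.14 and 1.22. The narrowest interval was that of Adcy4, from -0.11 to 0.23.

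**Figure D4:**
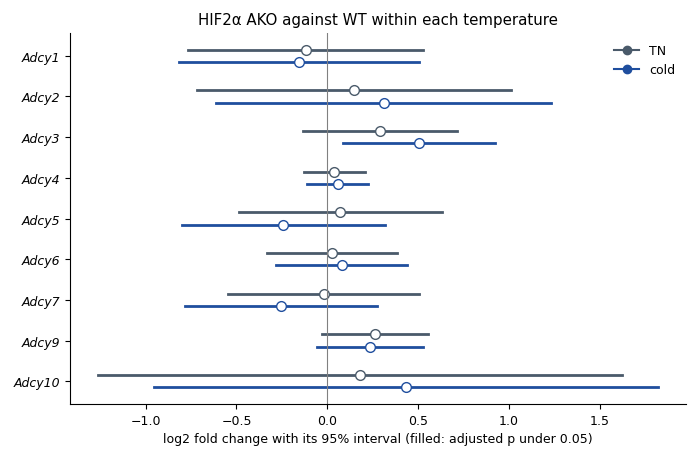
log2 fold change of AKO against WT at TN (grey) and in cold (blue) for the 9 tested members, with 95% intervals, and filled points for an adjusted p under 0.05, of which there are 0. Only the interval of Adcy3 in cold, 0.08 to 0.92, leaves out 0.

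The other genes of the cAMP pathway were examined from a list of 71 genes, of which 69 were tested. In cold, 14 were higher and 2 lower in WT, and 16 were higher and 4 lower in AKO, beside 21.3% and 27.0% of all tested genes called. Of these, 13 were higher and 1 was lower in both genotypes. Of all tested genes, 15.6% were called higher in each genotype and 12.2% in both. The classes given below are small and were not tested as sets, so their counts are descriptions. AKO against WT gave 0 calls in cold, 0 at TN and 0 in the interaction with edgeR, with 3, 1 and 0 genes at an unadjusted p under 0.05. For cold against TN, the median log2 fold change of the 69 genes was 0.13 in WT and 0.11 in AKO. Medians over all tested genes were -0.03 and -0.05.

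Upstream of the cyclases, 2 of 9 Gs-coupled receptors were higher in both genotypes. Adrb1, the β1-adrenergic receptor, was at 2.69 CPM in TN WT and 6.24 CPM in cold WT (log2 fold change 1.21, adjusted p = 0.0325), and at 2.92 CPM in TN AKO and 11.5 CPM in cold AKO (1.98, adjusted p = 0.00308). Gpr3, a receptor that is active without ligand, was under 1 CPM in every group mean, with 0.0313 CPM in TN WT and 0.502 CPM in cold WT. Adrb3, the main β-adrenergic receptor of mouse adipocytes, was at 506 CPM in TN WT and 271 CPM in cold WT and did not pass in WT (adjusted p = 0.145) or AKO (adjusted p = 0.370), and it is named here after its values were seen. Of 6 Gi-coupled receptors tested, 1 was higher in WT (Adora1) and 0 were called in AKO. The 1 with an unadjusted p under 0.05 in AKO, Adra2a, had lower values in cold (log2 fold change -0.69, adjusted p = 0.0894, edgeR). Of 7 Gα genes, Gnas, which encodes Gαs, and Gnao1, which encodes Gαo, were higher in both genotypes. Gnas rose from 829.6 to 1691 CPM in WT (log2 fold change 1.03, adjusted p = 0.00366) and from 862 to 2481 CPM in AKO (1.52, adjusted p = 3.77e-04). Gnao1 rose by 2.21 in WT and by 2.45 in AKO on the log2 scale. Of 10 genes of Gβ and Gγ subunits, 0 were called in WT, where 5 had an unadjusted p under 0.05, and 1 was higher and 1 lower in AKO. Of 10 genes of proteins that bind or scaffold adenylyl cyclase, 0 were called in WT, where 1 had an unadjusted p under 0.05, and 1 was higher in AKO, Ric8b.

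Downstream, Prkaca, which encodes the PKA catalytic subunit Cα, rose from 117 to 270.1 CPM in WT (log2 fold change 1.20, adjusted p = 0.00932) and from 130.4 to 332 CPM in AKO (1.35, adjusted p = 0.00471). Prkar2b, the regulatory subunit prominent in adipose tissue, rose by 1.78 in WT and by 1.73 in AKO on the log2 scale. Prkar2a was also higher in both genotypes, and Creb1, a transcription factor that PKA phosphorylates, was the 1 listed gene lower in both (log2 fold change -0.50 in WT and -0.42 in AKO). Of 11 listed cAMP effector genes, 3 were higher and 2 lower in WT, and 3 were higher and 1 lower in AKO. The other one lower in WT was Rapgef4 (log2 fold change -0.54, adjusted p = 0.0423, edgeR), which did not pass in AKO (-0.37, adjusted p = 0.118). Of 16 phosphodiesterase genes, 6 were higher and 0 lower in WT, and 7 were higher and 1 lower in AKO, beside 15.6% of all tested genes higher in each genotype. Pde1a, Pde4a, Pde4c, Pde4d, Pde7b and Pde8a were higher in both genotypes. Among these, Pde4d rose by 1.46 in WT and by 1.21 in AKO, and Pde7b by 1.47 and by 1.44, on the log2 scale. The phosphodiesterase Pde3b, which insulin activates in adipocytes, was at 206 CPM in TN WT and 351 CPM in cold WT and did not pass (adjusted p = 0.0649 in WT and 0.235 in AKO).

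Finally, for each tested member, the genes with the most similar log2 CPM over the 12 libraries were listed. These correlations are descriptions, since all points share the 4 groups and the scaling. For Adcy3 they were Tbrg4 (r = 0.994), Tmem259 (r = 0.992) and Rnmtl1 (r = 0.992). For Adcy6 they were Ptp4a1 (r = 0.981), Ppapdc2 (r = 0.981) and Rasd1 (r = 0.979). For Adcy7 they were Myo9b (r = 0.995), Myo1g (r = 0.995) and Laptm5 (r = 0.994), the last of which is a lysosomal membrane protein of blood cells. For Adcy10 they were Mme (r = 0.990), Tkt (r = 0.989) and 4930402H24Rik (r = 0.987). Adcy4 was most like Slc26a6 (r = 0.969), Kcnn1 (r = 0.964) and Tomm40 (r = 0.964). Adcy9 was most like Loxl1 (r = 0.961), Ghdc (r = 0.959) and Rps6kc1 (r = 0.956), and Adcy5 was most like Snhg7 (r = 0.955), Got1l1 (r = 0.907) and Tmcc3 (r = 0.902). Adcy2 was most like Itgb1bp2 (r = 0.900), Ttn (r = 0.881), which encodes the muscle protein titin, and Trim72 (r = 0.870), and these r values include the 2 libraries with skeletal muscle reads. For Adcy1 the values were lowest, with Ttll9 (r = 0.801) and Plekhs1 (r = 0.779).

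**Figure D5:**
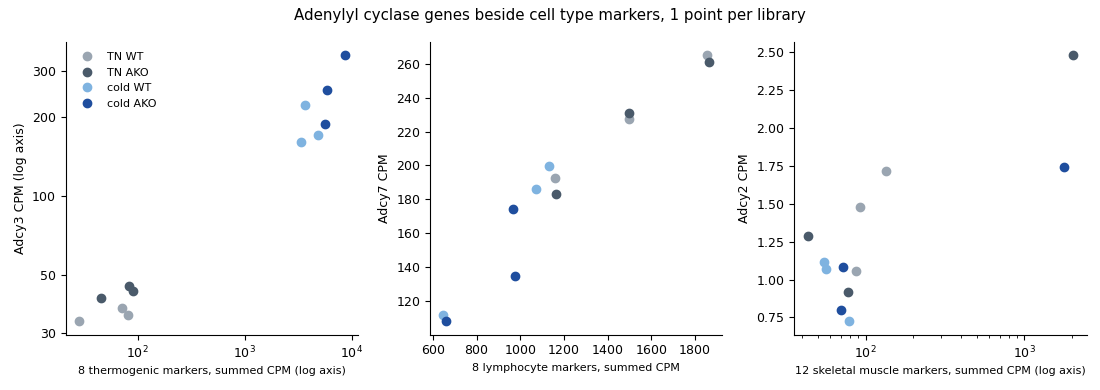
CPM of Adcy3 against the sum of 8 thermogenic adipocyte markers (left, both axes log), of Adcy7 against the sum of 8 lymphocyte markers (middle) and of Adcy2 against the sum of 12 skeletal muscle markers (right, log horizontal axis), with 1 point per library. Adcy7 is lowest, 108 and 112 CPM, in the 2 libraries with the lowest lymphocyte sums, which also have the lowest macrophage sums (not drawn). Adcy3 and the thermogenic sum separate the 6 cold from the 6 TN libraries.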

How the data were processed

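RNA-seq was performed on iWAT, with 12 libraries in 4 groups. Per the submitters' processing notes and the study's methods, the authors trimmed reads with Trim Galore 0.4.4, aligned them to GRCm38 with STAR 2.6.1d and made counts per gene with HTSeq 0.13.5. The deposited values are raw read counts without normalization, and the table of the series equalled the per-sample tables in all 12 libraries. Annotation and strand setting of the counting are not given in the sources used here. Tallies outside genes, 21.9 to 27.0% of listed reads per library, were left out.

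Using R 4.3.3 and edgeR 4.0.16, genes were kept by filterByExpr (minimum count 10, minimum total 15), and all 12 libraries entered 1 TMM-normalized quasi-likelihood fit with the 4 groups as its factor. Benjamini-Hochberg adjustment ran over 15306 genes, and the threshold was 0.05. CPM are TMM-scaled, and log2 CPM for correlations used a prior count of 2. RPKM are CPM per kb of exon union in GENCODE M21. Intervals are 95% intervals. At these depths a count of 0 allows up to 3 counts. Alternatives used DESeq2 1.42.0, limma 3.58.1, other scaling, no filter, a replicate block, the study's thresholds and left-out libraries. Simulated data were used only for the edgeR fit of cold WT against TN WT, and the alternatives were not tested on them.

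All members were named. Pathway genes named were those called in both cold comparisons, at most the 12 with the largest change in WT, and any called between genotypes. For each tested member, the 3 genes with the highest Pearson r over the 12 libraries were named. For Adcy1, 1 of these is not reported here. Other genes were named after their values were seen. The members and lists were chosen with earlier results of these data known. Of the marker lists not described with a member, 5 tested nerve markers, 6 smooth muscle markers and 12 skeletal muscle markers gave 0 calls in edgeR for cold against TN in either genotype (at an unadjusted p under 0.05, 1 nerve marker in WT and 1 smooth muscle marker in AKO), 1 of 6 epithelial markers was lower in cold in WT, and 2 of 6 progenitor markers in WT and 4 of 6 in AKO were lower in cold.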

Additional observations from a re-analysis of the deposited data

How the results depend on the processing

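The count of members called for cold against TN in WT was 3 and became 5 with limma voom and between 1 and 5 when 1 library was left out. In AKO it was 4 and lay between 3 and 6 over all alternatives. For cold AKO against cold WT it was 0 and became 2 under the study's thresholds, set on the edgeR values. The interaction of Adcy3 changed sign to -0.0323 without cold AKO replicate 1 (up to 0.40 without another library) and to -0.0295 with both libraries with skeletal muscle reads left out, an alternative chosen after seeing the data. Adcy2 for cold against TN in AKO ranged from -0.73 to 0.13 with 1 library left out. For cold AKO against cold WT, Adcy2 ranged from -0.0376 to 0.54 with 1 library left out and was -0.0374 with both muscle-bearing libraries left out. The other fold changes given for members kept their direction under every alternative run, with 18 values that newly passed and 10 that no longer passed. Over all genes, calls for cold against TN in AKO numbered 4138, and 1514 with both muscle-bearing libraries left out, when each AKO group had 2 libraries. In WT, 3259 genes were called, and 1752 with edgeR on the 6 WT libraries. Leaving out 1 library gave 1381 to 3722 genes in WT and 1613 to 4853 in AKO. For cold AKO against cold WT, 1 gene was called, and 0 to 13 in fits of other tools or of 6 libraries.

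Libraries with the same replicate number were not steadily alike, but this check cannot exclude that they were paired. Of 18 pairs with the same number, 5 had a correlation of their deviations above 0.1 (range -0.43 to 0.39). With the replicate block, 3 members were called in WT and 4 in AKO for cold against TN, and 0 in the other comparisons. Depth limits Adcy8, with 1 to 10 counts per library, and widens the intervals of Adcy1, Adcy2 and Adcy10.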
